A study of Mus musculus with 12 samples.

Results

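The promoter regions described here were those bound by BMAL1 in every library of a BMAL1-ChIP-seq experiment on control and senescent mouse adult fibroblasts (MAFs). They were chosen by their peak calls: peaks of the 6 BMAL1-ChIP-seq libraries with 1 bp or more in common were joined into regions, and a region was kept when all 6 lists held a peak in it and its midpoint lay within 1000 bp of a protein-coding start site (GENCODE M21). Of 16818 merged regions, 1106 (6.58%) had a peak in all 6 libraries, and 488 of these (44.1%) were promoter regions, which is 2.90% of all regions. The other 618 shared regions lay away from promoters, and 5211 promoter regions had a peak in 1 to 5 libraries. A start site within 1000 bp of one of the 488 regions was found for 539 of 21864 protein-coding genes (2.47%).

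Both groups were primary ear fibroblasts of adult female C57BL/6J mice grown at 3% oxygen. Control MAFs (n = 3) were sham irradiated and senescent MAFs (n = 3) received 20 Gy of X-rays, which halts division for good through DNA damage. The study kept irradiated cells in culture for weeks before use and gives no such time for controls. All cultures, the controls included, were given 100 nM dexamethasone for 2 h, a glucocorticoid that resets cellular clocks to the same phase, with collection 12 h later. Of the 12 libraries, the 6 inputs were not analysed here, and each of the other 6 came with a list of peaks and scores but no reads, so the sequencing depth is unknown. Nothing in the labels says whether replicates came from separate animals, so tests over libraries measure the spread between these libraries only, which may be technical. The labelled cell type could not be checked against marker expression in peak lists.

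BMAL1 pairs with CLOCK, and the pair binds the E-box CACGTG to activate the genes of its own repressors (the PER and CRY proteins, CIART and the DEC proteins) and of the REV-ERB receptors, which repress Bmal1 (Arntl) in turn. It also drives the PAR bZIP factors DBP and TEF, which carry the rhythm to output genes. Other basic helix-loop-helix proteins, among them MAX and its partners and the lysosomal regulators TFEB and TFE3, recognise the same 6 bases, and CCAAT is the site of NF-Y, a general promoter factor.

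E-boxes and variants at named members are printed first, to show how the sites of these members differ. All sequences are the plus strand of GRCm38 (mm10), 5′ to 3′, with the motif in capitals. The first set comes from clock genes. It shows a close pair of E-boxes at Ciart and Nr1d1, 1 E-box nearest the peak centre at Nr1d2, Tef, Cry1 and Bhlhe41, and the variant CACGTT, which stood in place of the E-box at Per2 (where it reads on the minus strand) and Cry2. Within 100 bp of the peak centre, the window counted below, 3 of the 12 clock members held CACGTG (Nr1d2, Tef and Cry1). Among all members 50.2% did. The printed E-box of Bhlhe41 lay at -513 bp from the peak centre.
Ciart, chr3:95882261-95882292: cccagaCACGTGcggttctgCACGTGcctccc
Nr1d1, chr11:98773853-98773885: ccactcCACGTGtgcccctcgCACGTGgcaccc
Nr1d2, chr14:18238661-18238690: aaacacaccgtgCACGTGgccagtgcggca
Tef, chr15:81810931-81810960: gcgccgcagccgCACGTGcagagcctcgtg
Cry1, chr10:85185097-85185126: cggcatgcacccCACGTGaccaccggcacc
Bhlhe41, chr6:145865556-145865585: cagcacccagctCACGTGcggaacgtacca
Per2, chr1:91459302-91459331: cacatagtggaaAACGTGaccgcgcgcgct
Cry2, chr2:92434218-92434247: gctccgccccctCACGTTcccaccatgtgt

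The second set comes from members ranked higher in senescent cells. It shows single E-boxes at Dedd2, Gstm1 and Ctsf, and the E-box pairs of Cops7a and of the lysosomal membrane gene Lamp1, whose 3 overlapping pairs span 4 E-boxes.
Dedd2, chr7:25220683-25220712: ggtcagggccagCACGTGcctaagacaggt
Gstm1, chr3:108017525-108017554: gccgtcaccccgCACGTGcatgtgcacacc
Cops7a, chr6:124965252-124965283: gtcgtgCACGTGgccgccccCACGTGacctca
Ctsf, chr19:4855074-4855103: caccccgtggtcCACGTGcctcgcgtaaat
Lamp1, chr8:13159094-13159127: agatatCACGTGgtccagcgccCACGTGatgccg
Lamp1, chr8:13159110-13159144: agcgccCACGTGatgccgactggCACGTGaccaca
Lamp1, chr8:13159127-13159157: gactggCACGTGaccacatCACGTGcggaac

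The third set gives peak windows of up to 200 bases outside exons, with every E-box, E-box variant (CACGTT, or with a final CG in place of TG) and CCAAT box of either strand in capitals. Cry1 combined the E-box with both variants. Tle3 and Fzd2 ranked higher in control cells. Tle3 held an E-box beside a CCAAT box, whereas Fzd2 held a pair of CCAAT boxes without an E-box.
Cry1, chr10:85185065-85185261: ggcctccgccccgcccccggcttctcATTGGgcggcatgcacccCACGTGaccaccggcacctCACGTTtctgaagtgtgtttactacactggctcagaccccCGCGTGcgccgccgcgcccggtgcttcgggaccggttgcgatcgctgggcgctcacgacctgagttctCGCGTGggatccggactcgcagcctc
Tle3, chr9:61372163-61372362: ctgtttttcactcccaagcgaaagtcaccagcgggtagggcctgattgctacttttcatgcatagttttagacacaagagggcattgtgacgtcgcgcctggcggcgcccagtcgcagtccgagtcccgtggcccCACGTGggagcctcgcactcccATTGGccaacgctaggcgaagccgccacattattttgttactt
Fzd2, chr11:102604097-102604296: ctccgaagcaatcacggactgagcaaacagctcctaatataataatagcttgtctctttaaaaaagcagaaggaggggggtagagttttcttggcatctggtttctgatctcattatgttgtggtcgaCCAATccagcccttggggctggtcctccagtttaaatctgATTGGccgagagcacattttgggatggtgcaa

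The members were compact and centred just upstream of the start site. Their median length was 691.5 bp (range 284 to 4832), and the median midpoint lay at -111 bp from the nearest start site (interquartile range -253 to 15). The midpoint was upstream in 353 members (72.3%) and within 500 bp in 419 (85.9%). The centre of the best-ranked peak was intergenic in 313, in an intron in 74, in an untranslated exon in 93 and in a coding exon in 8. Start sites on both strands lay within 1000 bp of 46 members (9.43%). Start sites of 2 or more genes lay within 1000 bp of 51 members (10.5%), whose peaks cannot be given to a single gene. Base composition was that of promoters: the median GC content of the peak windows was 60.5%, against 50.5% in shared regions away from promoters. Of the 488 members, 2 lay on chromosome X and 0 on chromosome Y or the mitochondrial genome.

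Some shared regions lay close to either side of the distance limit. The members nearest the limit were Nr1d1 at 999 bp, Dbp at 996 bp and Ltbp4 at 993 bp, whereas Hspa8 at -1019 bp, Zfp36 at -1022 bp and Nfe2l2 at 1025 bp fell just outside. Some calls lay close to their limit as well: the lowest scores among members were 2.06 at Ier2 and Dedd2 and 2.10 at Tcf3, next to the lowest scores any list held. Of the 251 promoter regions called in 5 libraries, 116 were missing from control replicate 1 and 89 from control replicate 2, the shortest lists. Among these 251, the promoter region of Hlf, a PAR bZIP factor, missed its call in control replicate 2 alone.

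E-boxes were counted within 100 bp of the centre of the best-ranked peak of each region, on both strands. CACGTG was present in 245 of the 488 members (50.2%, 95% Wilson interval 45.8 to 54.6). The share was 41.1% (37.3 to 45.0) in shared regions away from promoters, a difference of 9.10 percentage points (95% Newcombe interval 3.19 to 14.9). At promoter regions called in 1, 2, 3, 4 and 5 libraries the E-box share was 11.3%, 16.0%, 23.2%, 35.7% and 36.7%. The same 200 bp around all 41135 protein-coding start sites held an E-box in 5.11%, and windows 2000 bp to either side of the members in 2.05%. These intervals cover counting error only, and regions are not replicates of a condition. The share was thus highest in the members, and among the other promoter sets the interval of 5 libraries (30.9 to 42.8) overlapped that of 4 (31.4 to 40.4).

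Close variants were also common. CACGTT was found in 60 members (12.3%) and CACGCG in 111 (22.7%), against 3.24% and 9.45% of all start sites. The E-box or at least 1 of these variants stood in 338 members (69.3%, 65.0 to 73.2), against 32.9% of promoter regions called in 1 to 5 libraries. Repeated E-boxes were rarer: 56 members (11.5%) held 2 or more CACGTG within 100 bp, against 1.69% of promoter regions called in 1 to 5 libraries and 0.365% of all start sites. Counting the whole merged region, 339 members (69.5%) held at least 1 E-box, and in 56 members a pair of E-boxes lay 40 bp or less apart, as at Ciart with 8 bases between them and at Nr1d1 with 9.

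The general promoter motifs behaved differently. CCAAT stood in 206 members (42.2%, 37.9 to 46.6), close to the 46.6% of promoter regions called in 5 libraries and above the 25.7% of shared regions away from promoters and the 25.4% of all start sites. GGGCGG, the site of SP factors, stood in 56.8% of members, 14.9% of shared regions away from promoters and 40.3% of all start sites. The AP-1 site (TGACTCA or TGAGTCA) was rarer in members than away from promoters. It stood in 19 members (3.89%, 2.51 to 6.0), in 16.8% (14.1 to 20.0) of shared regions away from promoters and in 2.70% of all start sites. Members exceeded all start sites by 1.19 percentage points (Newcombe interval -0.204 to 3.31). The D-box TTATGTAA stood in 5 members. The ROR element was searched as an exact pattern (A, A or T, A or T, any base, then TAGGTCA) and not as AGGTCA alone. This pattern stood in 0 of 488, which allows a share of up to 0.781% (Wilson). CATGTG, a weaker E-box, stood in 10.5% of members and 31.2% of shared regions away from promoters, and ACCGGT, the E-box bases in another order, in 3.07% of members. CACGTG and CCAAT may stand in the same window, and 82 members held both.

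**Figure D1:**
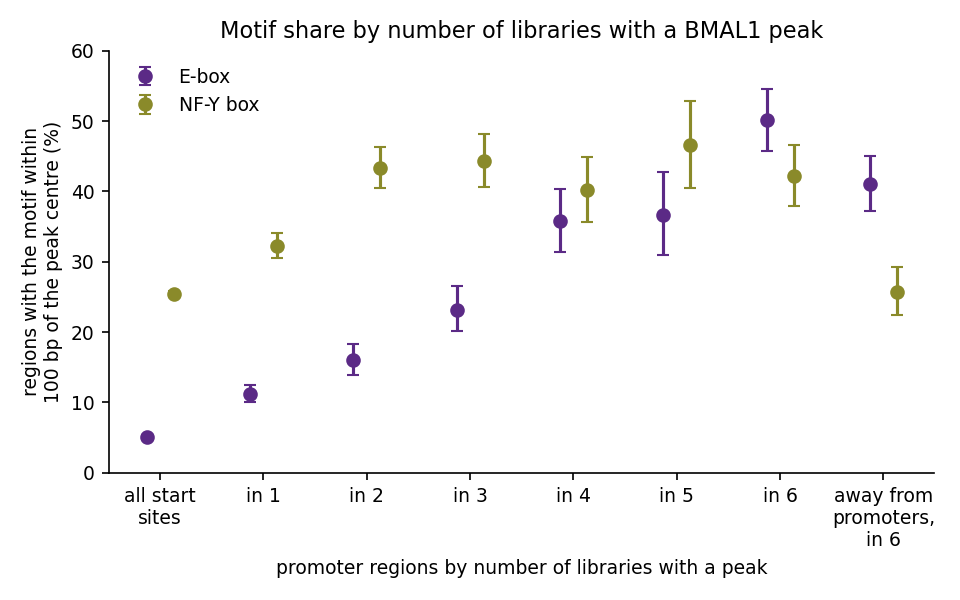
Share of regions (y axis, percent) with an E-box (CACGTG, purple) or NF-Y box (CCAAT, olive) within 100 bp of the best-ranked peak centre, for promoter regions with a peak in 1 to 6 libraries, for shared regions away from promoters and, centred on the start site itself, for all start sites; bars are 95% Wilson intervals. The E-box share reaches 50.2% in the promoter regions called in all 6, whereas CCAAT lies between 40.2% and 46.6% from 2 libraries to 6.

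E-boxes in the members were concentrated around both the peak centre and the start site. Of 559 E-boxes within 500 bp of a best-ranked peak centre, 197 (35.2%) lay within 50 bp and 320 (57.2%) within 100 bp. Along the gene, the 100 bp just upstream of the start site held 27.0 E-boxes per 100 members, and the next 100 bp held 18.6. All start sites, with no regard to BMAL1, also had their maximum there, at 3.85 per 100. From 400 to 500 bp downstream the members held 1.64 per 100 and all start sites 1.57. The base 5′ of CACGTG, read on both strands, was T on 34.8% of sides (31.3 to 38.6), against 22.3% (19.2 to 25.6) in shared regions away from promoters and 38.2% at all start sites.

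**Figure D2:**
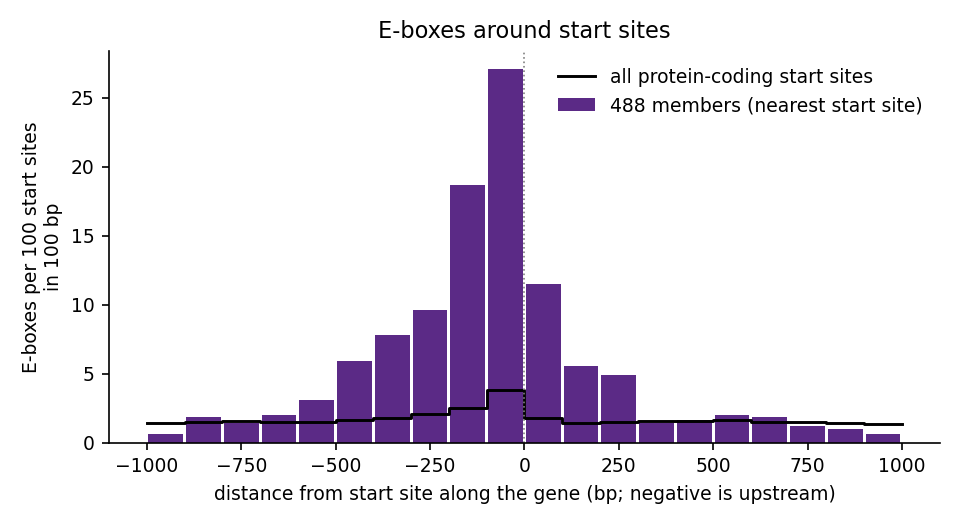
Number of E-boxes (CACGTG) per 100 start sites in bins of 100 bp (y axis) against distance from the start site along the gene (x axis, bp, negative upstream), for the nearest start sites of the 488 members (bars) and all protein-coding start sites (line). Both peak from -100 to 0 bp, at 27.0 and 3.85 per 100.

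The best-ranked members were clock genes. To compare libraries whose lists differed from 2794 to 10601 peaks, the score of each region was turned into a percentile among the 1106 shared regions of its own library, with 100 for the best. Since the peaks' scores belong to the calls that chose the regions, levels are a description. Clock genes filled the first 7 places and 9 of the first 10 by mean percentile: Ciart, Per2, Dbp, Nr1d2, Tef, Nr1d1, Cry1, Cry2 and Per3. The remaining place went to Nptn, which encodes the cell adhesion protein neuroplastin. A member stood at 12 of the 31 genes of the clock list (38.7%), where 2.47% of all protein-coding genes had one.

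The repressors stood near the top of the order in both groups. Ciart stood at percentiles 100, 99.9 and 99.9 in control libraries and 100, 100 and 99.9 in senescent libraries. Per2, the period gene with the best rank, stood at 99.8 in all 3 control libraries and at 99.7, 99.8 and 99.7 in senescent libraries. Its groups overlapped, as did those of Ciart, Dbp, Nr1d1, Cry1, Cry2 and Per3. Cry1 had 99.0, 99.1 and 99.1 in control against 98.6, 99.0 and 99.1 in senescent cells, and Cry2 had 98.7, 98.5 and 98.6 against 98.2, 98.5 and 98.4. Per2, Cry2 and Per3 reached these places with 0 CACGTG in their merged regions, and the variant CACGTT stood at Per2 and Cry2, as printed above. Per1, whose shared region had its midpoint beyond 1000 bp, was not a member.

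Receptors and output factors lay equally high. Nr1d2, which encodes REV-ERBβ, stood at 99.5, 99.5 and 99.3 in control and 99.8, 99.6 and 99.8 in senescent libraries, so that every senescent library was above every control. Tef went the other way, with 99.6, 99.6 and 99.7 in control and 99.5, 99.5 and 99.3 in senescent libraries. Both gaps were under 1 percentile and amount to a few places among 1106 regions. Nr1d1, which encodes REV-ERBα, stood at 99.1 to 99.2 in control and 99.2 to 99.5 in senescent libraries. Dbp, with a region of 4832 bp, stood at 99.6 to 99.7 in both groups, and the E-box nearest the centre of its best-ranked peak lay 3048 bp away within this broad region, in an intron.

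The DEC repressors differed from each other. Bhlhe40 (DEC1) stood at 97.2, 97.1 and 97.2 in control and 95.3, 95.6 and 96.2 in senescent libraries, a small gap without overlap. Bhlhe41 (DEC2) stood at 64.9, 55.1 and 42.6 in control and at 85.1, 80.2 and 83.1 in senescent libraries. It was the clock gene with the largest gap, 54.2 ± 11.2 against 82.8 ± 2.43 (SD, n = 3 each). Nampt, the enzyme that limits NAD salvage, was the lowest, with 38.4, 14 and 24.8 in control and 9.40, 42.9 and 23.8 in senescent libraries, which overlapped throughout. Of the activators, Clock and Npas2 had 0 regions nearest them, and Arntl had none called in more than 2 libraries.

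**Figure D3:**
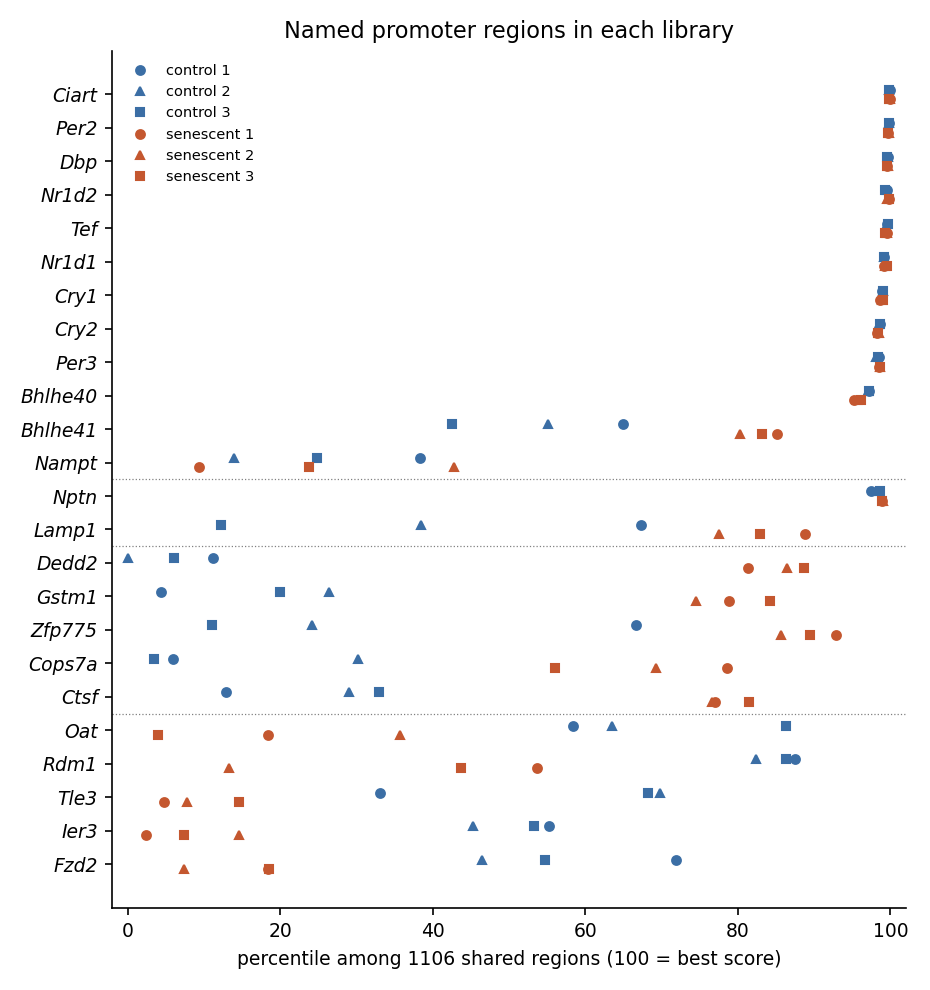
Percentile among 1106 shared regions (x axis) of 24 named promoter regions in the 3 control (blue) and 3 senescent (orange) libraries; dotted lines separate clock genes, Nptn with the E-box-rich Lamp1, regions higher in senescent libraries and regions higher in control libraries. Of the 12 clock regions, 10 sit above 95 in every library, whereas Bhlhe41, Lamp1 and the lower groups separate by condition.

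Over all 488 members, promoter regions stood higher in the order of senescent libraries. Their median percentile was 47.0, 45.5 and 48.5 in control replicates 1, 2 and 3, and 53.5, 59.3 and 55.2 in senescent replicates. Every senescent library was above every control, with a mean of 47.0 ± 1.48 (SD, n = 3) against 56.0 ± 2.98 (SD, n = 3) and a difference of 9.0. The exact two-sided permutation test gave p = 0.1, the smallest that 20 arrangements allow, and 0.4 after Benjamini-Hochberg adjustment over 4 tests. With percentiles in the whole list the difference was 7.83 and the groups overlapped (exact permutation test, p = 0.3). Percentiles are shared out among the 1106 regions, so the shared regions away from promoters moved the opposite way by construction, from 51.6 to 52.6 in control to 42.6 to 46.5 in senescent libraries. In plain ranks, the best 500 peaks of a list included 180, 184 and 181 members in control and 203, 224 and 208 in senescent libraries. The rule needed a call in every library, so promoters bound in 1 group alone could not be members.

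Region by region, 101 members (20.7%) had every senescent library above every control, where 18% of all 1106 shared regions did. The opposite held for 48 members (9.84%), where 17.8% of all shared regions did. Away from promoters the counts were 98 (15.9%) and 149 (24.1%) of 618. Members thus exceeded shared regions away from promoters by 4.84 percentage points in the first direction (Newcombe interval 0.275 to 9.5) and fell short of them by 14.3 in the second (-18.5 to -9.91). The share higher in senescent libraries was close to the background, and the lower count of members higher in control was the larger contrast. The other 339 members overlapped. With 1 library fewer, groups separate more often by construction: without control replicate 1, 95 of 604 members were higher in control (15.7%, against 23.3% of all shared regions then), and without control replicate 2, 88 of 577 were (15.3%, against 22.1%) and 153 were higher in senescent libraries (26.5%, against 22.4%). Percentiles in the whole list gave 62 members higher in senescent libraries (12.7%, against 12.9% of all shared regions) and 10 higher in control libraries (2.05%, against 4.70%).

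**Figure D4:**
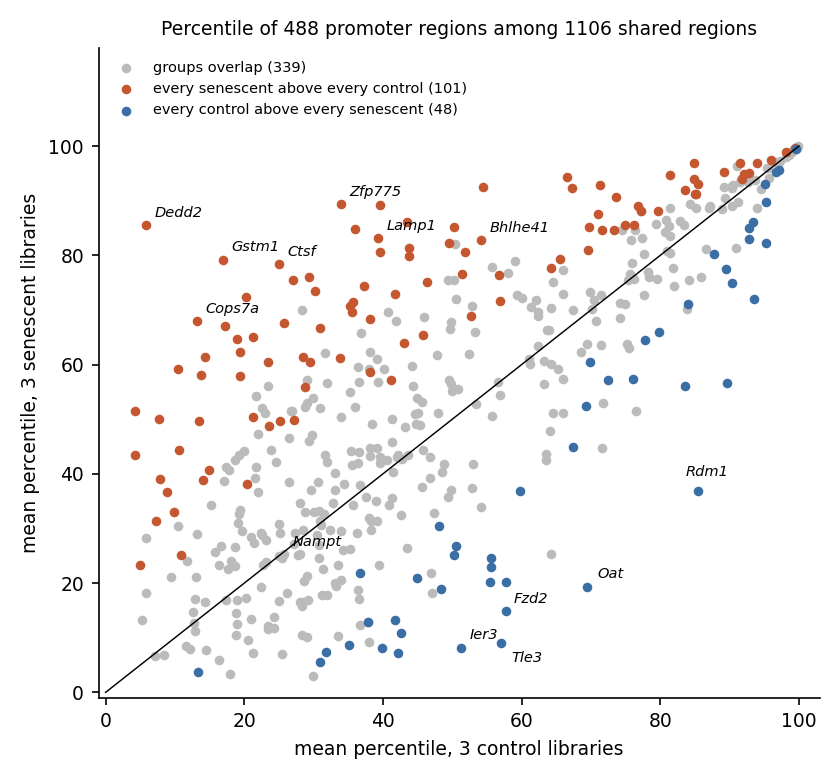
Mean percentile of each of the 488 members in the 3 control libraries (x axis) against the 3 senescent libraries (y axis), both among 1106 shared regions; orange and blue points are the 101 and 48 members whose libraries did not overlap, grey points the other 339. Points above the line ranked higher in senescent libraries, as 294 of 488 did.

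The members with the widest gaps were chosen for them, so their values are a description. Dedd2 encodes a death effector domain protein. Its region spans its start site, and the midpoint of the region lies between that start site and the one of Zfp526. Dedd2 stood at 11.2, 0.0904 and 6.10 in control and at 81.3, 86.4 and 88.7 in senescent libraries. Gstm1, a glutathione S-transferase, stood at 4.43, 26.4 and 20.0 against 78.9, 74.5 and 84.2. Zfp775, a zinc finger protein, had 66.6, 24.2 and 11.0 against 92.8, 85.7 and 89.5. In all 3 the lowest senescent library lay above the highest control, though control replicate 1 alone was high at Zfp775. Cops7a, a subunit of the COP9 signalosome, had 5.92, 30.2 and 3.48 against 78.5, 69.3 and 56.1, and Ctsf, the lysosomal protease cathepsin F, had 12.9, 29.1 and 32.9 against 77.0, 76.6 and 81.5. An E-box stood in the merged region of 4 of these 5, as printed above, and Zfp775 had none.

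The members with the widest gap towards control carried fewer E-boxes. Oat, ornithine aminotransferase, stood at 58.4, 63.5 and 86.3 in control and 18.4, 35.7 and 3.98 in senescent libraries. Rdm1, a RAD52 motif protein, had 87.5, 82.4 and 86.3 against 53.7, 13.3 and 43.8. Tle3, a Groucho family corepressor, had 33.1, 69.8 and 68.2 against 4.75, 7.82 and 14.6. In these 3 the senescent libraries were all below the lowest control. Ier3, an immediate early gene, had 55.3, 45.3 and 53.3 against 2.44, 14.6 and 7.46, and Fzd2, a Wnt receptor, had 71.9, 46.5 and 54.7 against 18.4, 7.46 and 18.5. Of the 5, Tle3 was the one with an E-box in its region.

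The number of E-boxes went with the direction. No E-box stood within 100 bp of the peak centre in 243 members, 1 in 189, 2 in 44 and 3 or more in 12. The share with every senescent library above every control was 14.8%, 22.2%, 40.9% and 41.7% in that order, and the opposite share was 12.3%, 8.47%, 4.55% and 0%. Of all shared regions, 18% lay in the first direction and 17.8% in the second. Members with 2 or more E-boxes were thus higher in senescent libraries in 41.1% (29.2 to 54.1, Wilson), against 14.8% (10.9 to 19.8) of members without one. The median percentile of members with 2 E-boxes was 66.5, 64.2 and 58.3 in control and 77.7, 76.4 and 78.2 in senescent libraries, and those groups did not overlap. Members without an E-box had 38.4, 43.6 and 48.5 against 46.1, 49.9 and 47.3, which overlapped. Without control replicate 3 the 2 shares were 44.1% and 24%, and with percentiles in the whole list they were 23.2% and 9.05%. Away from promoters, 19 of the 48 shared regions with 2 or more E-boxes were higher in senescent libraries and 7 in control libraries. The tendency was thus not particular to promoter regions.

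The gap in median percentile between members with and without an E-box was less uniform. It was 15, 3.8 and -0.859 in control and 14.8, 17.1 and 11.9 in senescent libraries, 5.98 ± 8.16 against 14.6 ± 2.61 (SD, n = 3 each). The libraries overlapped (exact two-sided permutation test, p = 0.3, adjusted 0.4 over 4 tests). When percentiles were taken in the whole list instead of among shared regions, the difference of 8.62 turned to -0.202. Without control replicate 1 it was 17.9 and the groups separated, and without control replicate 3 it was 4.84 and they overlapped.

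**Figure D5:**
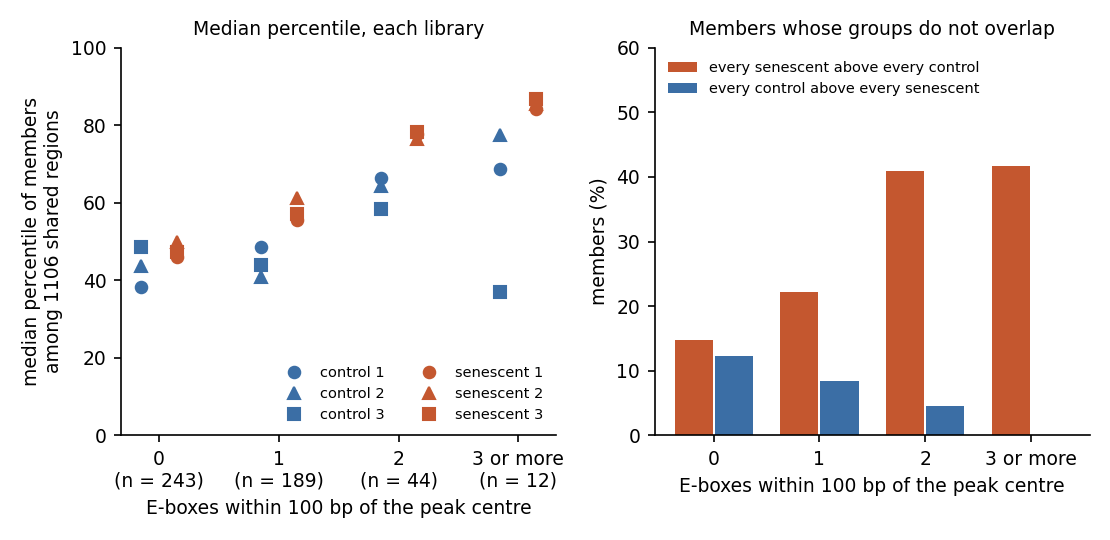
Left, median percentile (y axis) of members with 0, 1, 2 or 3 and more E-boxes within 100 bp of the peak centre in each control (blue) and senescent (orange) library; right, percent of members in each class whose 3 senescent libraries all lay above the controls (orange) or below them (blue). The orange bars run from 14.8% to 41.7% and the blue bars from 12.3% to 0%.

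CCAAT divided the members the other way. Of the 101 members higher in senescent libraries, 65 (64.4%, 54.6 to 73.0) held CACGTG and 33 (32.7%, 24.3 to 42.3) held CCAAT. Of the 48 higher in control libraries, 18 (37.5%, 25.2 to 51.6) held CACGTG and 32 (66.7%, 52.5 to 78.3) held CCAAT. The differences were 26.9 percentage points for the E-box (Newcombe interval 9.71 to 41.9) and -34.0 for CCAAT (-48.3 to -16.9). Members with CACGTG and no CCAAT numbered 163, of which 44 (27.0%) were higher in senescent and 6 (3.68%) in control libraries. With CCAAT and no CACGTG there were 124, of which 12 (9.68%) and 20 (16.1%) were. Of the 82 members with both, 21 (25.6%) and 12 (14.6%) were, and of the 119 with neither, 24 (20.2%) and 10 (8.40%). Of all shared regions, 18% and 17.8% were. The share of members with CCAAT alone that were higher in control libraries was thus close to that of all shared regions. The shared regions away from promoters split the same way by E-box, with CACGTG in 58.2% of those higher in senescent and 32.9% of those higher in control libraries, and CCAAT in 20.4% and 30.9%. Base composition differed as well: median GC content of the peak windows was 64% in members higher in senescent and 57.5% in those higher in control libraries. Depth and background are not given. The part of base composition, depth and background in this contrast was not tested.

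Peaks in the members tended to be wider in senescent libraries without separating the groups. Median peak width was 278.5, 319 and 504 bp in control and 492, 596 and 525 bp in senescent libraries, 367 ± 120 against 538 ± 53.1 bp (SD, n = 3 each). The exact two-sided permutation test gave p = 0.2 (adjusted 0.4), and control replicate 3, the longest list, was inside the senescent range. The median distance from the peak centre to the nearest E-box was 47, 57 and 66 bp in control and 50, 57 and 51 bp in senescent libraries, which overlapped (exact two-sided permutation test, p = 0.7, n = 3 each). Away from promoters, median peak width was 318, 355 and 498.5 bp in control and 445.5, 471 and 451 bp in senescent libraries. Control replicate 3 exceeded every senescent library there. Narrow peaks in control replicates 1 and 2 were thus not particular to the members.

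Beyond the clock, members were frequent among a few families of regulators, where 2.47% of all protein-coding genes had a member. Of 17 Kruppel-like factor genes, transcription factors of which several follow the clock, 5 had a member (29.4%). Klf11 stood at 96.6, 95.9 and 95.3 in control and 97.6, 97.4 and 97.2 in senescent libraries, and Klf16 at 79.6, 84.5 and 80.1 against 95.7, 94.2 and 94.2. Both were higher in every senescent library, as 18% of all shared regions were, whereas Klf10, Klf9 and Klf13 overlapped. Of 19 other basic helix-loop-helix leucine zipper genes that bind E-boxes, 4 (21.1%) had a member (Mnt, Max, Mxd4 and Mxd1). Max, the shared partner of the MYC network, had 43.6, 33.3 and 46.5 against 48.2, 67.0 and 56.5, without overlap. Of 22 immediate early genes, 5 had a member (22.7%): Gadd45g, Gadd45b, Egr1, Ier3 and Ier2, of which Ier3 alone did not overlap. Ier3 was higher in control libraries, as 17.8% of all shared regions were. Of 17 AP-1 subunit genes, 0 had a member, and a list of 17 is too short to tell this from 2.47%.

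Growth and cell cycle genes were fewer and stood high. The cell cycle and p53 list had a member at 2 of 36 genes (5.56%, against 2.47% of all protein-coding genes). Both ranked above every control in senescent libraries, as 18% of all shared regions did. Ccne2, which encodes cyclin E2, had 91.5, 93.5 and 90.5 against 93.6, 94.2 and 94.3. Cdk4, a G1 kinase, had 90.5, 79.9 and 84.6 against 90.7, 91.4 and 91.5. Cdk4 held 3 E-boxes within 100 bp of its peak centre. Ncl, the nucleolar protein nucleolin, also held 3 and had 78.1, 88.5 and 88.0 against 97.2, 96.4 and 97.1. All 3 thus combined a high rank with no overlap, by margins of under 1 percentile at Ccne2 and Cdk4. Wee1, a mitotic inhibitor kinase outside the list, overlapped with 77.4, 85.8 and 78.7 against 79.7, 86.7 and 86.6. Ribosome biogenesis genes had a member at 4 of 49 (8.16%) and translation factor genes at 7 of 68 (10.3%). Among the latter were Eif5a2 (92.5, 92.5 and 93.4 against 96.3, 95.2 and 93.9) and Eef2k, a kinase of elongation factor 2. Eif4a1, the initiation factor helicase, went towards control with 95.4, 95.3 and 95.1 against 82.1, 82.5 and 82.3, and it held an E-box together with 2 CCAAT boxes.

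The 4 members on the lysosome list all held an E-box within 100 bp of the peak centre, where 50.2% of all members did. With 4 members, these shares cannot be told apart. Of 66 lysosome and V-ATPase genes, 4 had a member (6.06%, against 2.47% of all protein-coding genes): Lamp1, Ctsf, Glb1 and Atp6v1h. Lamp1, a major glycoprotein of the lysosomal membrane with 6 E-boxes in its region, stood at 67.3, 38.5 and 12.3 in control and 88.8, 77.5 and 83.0 in senescent libraries, without overlap. Glb1, which encodes the lysosomal β-galactosidase used to stain senescent cells, had 34.5, 44.5 and 1.22 against 60.9, 42.9 and 50.9, and its groups overlapped. Atp6v1h, a V-ATPase subunit, had 24.2, 8.68 and 32.3 against 57.5, 58.7 and 7.46 and overlapped as well. Lamtor4, a lysosomal Ragulator subunit outside the list, was added after its values were seen and is a description only. It had 0 E-boxes within 100 bp of its peak centre and went towards control, with 91.1, 93.8 and 93.4 against 81.8, 83.2 and 89.8. Of 34 autophagy genes, 3 had a member (8.82%), of which Atg3 shares its region with the nucleotide sugar transporter Slc35a5. That region held 2 E-boxes and ranked higher in every senescent library. Of all shared regions, 18% ranked higher in every senescent library and 17.8% in every control library.

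Other housekeeping groups are set beside the 2.47% of all genes with a member. A member stood at 3 of 83 cytosolic ribosomal protein genes (3.61%), 4 of 93 oxidative phosphorylation genes (4.30%), 3 of 68 splicing genes (4.41%) and 5 of 90 chaperone genes (5.56%), and at 1 of 78 mitochondrial ribosomal protein genes (1.28%). Ndufa6, a subunit of complex I, had 77.4, 11.0 and 42.2 in control against 88.1, 88.0 and 82.1 in senescent libraries, whereas Atp5g1, of the ATP synthase, had 56.0, 40.8 and 37.8 against 1.22, 35.1 and 26.4. These members of the same pathway therefore differed in direction. Solute carrier genes had a member at 11 of 371, of which 5 were higher in senescent and 0 in control libraries (18% and 17.8% of all shared regions), for example Slc30a1, a zinc exporter, with 56.0, 8.68 and 36.8 against 58.2, 64.6 and 61.1. Proteasome (50), aminoacyl-tRNA synthetase (37), collagen (44), keratin (49), blood cell (14) and olfactory receptor (1091) genes had 0 members. Apart from the olfactory receptors, each of these lists is too short to tell 0 from 2.47%.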

How the data were processed

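BMAL1-ChIP-seq used tagmentation on beads (TAF-ChIP). The authors mapped paired reads to mm10 with BWA, kept pairs with 1 or both ends unique, removed duplicates with Picard and called peaks with MACS2 in each library separately at an FDR of 1% or less. The MACS2 version and the use of input as its control are not given in the sources used here. The labels and the methods of the study name different suppliers of the BMAL1 antibody. The score deposited by the authors was read as the −log10 of the q-value, inferred from lowest scores just above 2. It grows with the depth of its own library, so it was used within a library only. All 6 lists name the same sequencing lane in their headers. The read-based comparison of the study (DiffBind) was not repeated.

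Groups came from sample titles. Peaks were merged with Python 3.11.15 (numpy 2.4.6, scipy 1.17.1, pysam 0.24.0). Start sites and exons came from protein-coding transcripts of GENCODE M21, and sequence from GRCm38.p6 (RefSeq), whose chromosome names and lengths were checked: 0 peaks ran past an end. The 14 motifs were exact patterns on both strands in 200 bp windows, which leave out weaker sites. Lists hold no summits, so the peak centre was used, and in broad peaks it may lie away from the site bound. Group means of single values per library were set against all 20 arrangements of the labels (exact permutation test, two-sided). Sets of regions were described by shares with 95% Wilson or Newcombe intervals, without a test. Code was tested on simulated peaks. The members and the 24 gene lists were chosen with earlier results of these data known. Named genes were those of the clock list, the 10 best-ranked members, the 5 widest gaps in each direction among members whose groups did not overlap, the 3 with most E-boxes, up to 3 per other list, and those next to the thresholds. Atp6v1h, Klf9, Klf13, Lamtor4, Mxd1, Slc30a1, Slc35a5 and Wee1 were added after their values were seen. Some members that the rule names are not reported here. Alternatives changed the merge overlap, score threshold, list length, promoter distance, region centre, chromosomes, motif window and percentile scale, paired the libraries, and left out each library.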

Additional observations from a re-analysis of the deposited data

How the results depend on the processing

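The higher median percentile of the members in senescent libraries and the larger E-box share of members than of shared regions away from promoters kept their direction under every alternative run for them, from 6.56 to 10.6 percentiles and from 4.67 to 14.1 percentage points. With percentiles in the whole list the former was 7.83, and the groups overlapped. With motifs within 50 bp the interval of the latter reached -0.777. A stricter score, the better-scoring part of each list above its median, left 270 members, an E-box share of 55.6%, and 62 and 27 members higher in senescent (23.0%, against 19.3% of all shared regions) and in control libraries (10%, against 18.3%). A motif window of 50 bp gave an E-box share of 33.0%, and the whole merged region gave 69.5%, by construction of the window, with 10.1% of members without an E-box higher in senescent libraries. Percentiles in the whole list, which depend on its length, gave 62 and 10 members without overlap (12.7% and 2.05%, against 12.9% and 4.70% of all shared regions), 23.2% and 9.05% higher in senescent libraries among members with at least 2 and with 0 E-boxes, and an E-box gap of -0.202 between groups. Leaving out each library in turn gave 117 to 153 members higher in senescent (23.8% to 28.4%, against 21.3% to 24.1% of all shared regions) and 61 to 95 higher in control libraries (12.4% to 15.7%, against 20.9% to 23.6%), an E-box gap between groups of 4.84 to 17.9, 16.4% to 24% higher in senescent libraries among members without an E-box, and a difference in distance to the E-box of -6.83 to 1.5 bp, which turned without control replicate 3. The cause was not tested. The difference in E-box share and the shares by E-box number were added to the alternatives after seeing the data.

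Same-numbered libraries did not deviate together over the members (correlations 0.0609, 0.0148 and 0.0520), so the numbers were not taken as pairs. With a replicate block, exact sign-flip tests over 3 pairs, for which 0.25 is the smallest p, gave p = 0.25 for the percentile (difference 9.0) and peak width (170.5 bp), 0.5 for the E-box gap (8.62) and 1 for the distance to the E-box (-4 bp). The tests with 3 libraries per group cannot reach 0.05, and the depth of the libraries is unknown.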
